A study of Mus musculus with 2 samples.

Results

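NRF1 peaks lying far from any transcription start were examined in the skeletal muscle of wild-type mice. They were defined as peaks on nuclear chromosomes whose summit, the position of highest signal, lay more than 2000 bp from every start of a known RefSeq transcript in either direction. Of 3223 nuclear peaks, 325 met this definition, a share of 10.1%, and they are called distal peaks here. The 2898 other nuclear peaks comprised 2607 promoter peaks, with the summit between 1000 bp before and 100 bp after a start, and 291 flanking peaks, which lay within 2000 bp of a start but outside that interval. The 3 mitochondrial peaks of the list were left out. Chromatin immunoprecipitation followed by sequencing (ChIP-seq) was used, in which an antibody recovers a protein with the DNA it occupies. The 2 libraries form 1 group according to their labels, which name NRF1 as antibody, skeletal muscle as tissue and wild-type as genotype for each and state neither age nor sex nor treatment. However, replicate 2 is listed as input DNA in the study's reporting summary, and all peaks in the single list carry the name of the library of replicate 1. The list also holds another number of nuclear peaks than the sites counted by the study, so it may not be the set counted there. Values below therefore have no replicate error, the depth behind them is unknown, and each p-value covers counting over the peaks of 1 list, in which neighbouring peaks are not independent.

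Nuclear respiratory factor 1 (NRF1) activates nuclear genes of mitochondrial respiration as well as many housekeeping genes. It binds as a dimer to a palindrome made of inverted GCGCA half-sites, GCGCATGCGC, mostly in CpG islands at promoters, and CpG methylation of this sequence is known to prevent its binding. In muscle, the glucocorticoid receptor mainly occupies enhancers, and the study examined how the demethylase LSD1 connects this receptor with NRF1 at promoters.

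The sequences of 7 distal peaks show the kinds of DNA found under the summits. Each line gives the summit base with 100 bp on either side, read 5′ to 3′ on the plus strand of the RefSeq sequence of GRCm38 (mm10), and capitals mark copies of the palindrome with at most 1 mismatch. The first 4 were among the strongest distal peaks and held copies with 1 mismatch, the Gdf15 and Srl peaks held exact copies, and the last is shown because it was enriched without any copy.
Morn3 upstream, chr5:123057860-123058060: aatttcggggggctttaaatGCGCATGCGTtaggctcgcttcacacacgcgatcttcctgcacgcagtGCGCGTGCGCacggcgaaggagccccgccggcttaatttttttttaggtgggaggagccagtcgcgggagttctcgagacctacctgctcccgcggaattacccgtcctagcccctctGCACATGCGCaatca
Peg10 intron, chr6:4749277-4749477: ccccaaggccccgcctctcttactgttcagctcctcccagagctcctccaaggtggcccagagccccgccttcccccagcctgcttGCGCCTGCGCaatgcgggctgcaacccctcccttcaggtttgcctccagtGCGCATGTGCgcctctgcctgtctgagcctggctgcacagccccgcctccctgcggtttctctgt
Trappc9 upstream, chr15:73067426-73067626: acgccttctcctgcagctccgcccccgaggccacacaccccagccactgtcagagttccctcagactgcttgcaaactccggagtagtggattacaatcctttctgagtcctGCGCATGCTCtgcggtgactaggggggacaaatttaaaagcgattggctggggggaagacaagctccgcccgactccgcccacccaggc
Ptma upstream, chr1:86487533-86487733: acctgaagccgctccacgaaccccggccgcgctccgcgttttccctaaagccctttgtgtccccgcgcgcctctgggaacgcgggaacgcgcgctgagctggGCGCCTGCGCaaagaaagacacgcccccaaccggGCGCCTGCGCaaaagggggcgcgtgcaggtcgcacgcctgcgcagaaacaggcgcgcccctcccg
Gdf15 coding exon, chr8:70629786-70629986: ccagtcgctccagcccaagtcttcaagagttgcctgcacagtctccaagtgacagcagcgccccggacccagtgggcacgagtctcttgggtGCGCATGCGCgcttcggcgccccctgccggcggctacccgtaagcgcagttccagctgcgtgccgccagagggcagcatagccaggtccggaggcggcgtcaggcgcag
Srl downstream, chr16:4475151-4475351: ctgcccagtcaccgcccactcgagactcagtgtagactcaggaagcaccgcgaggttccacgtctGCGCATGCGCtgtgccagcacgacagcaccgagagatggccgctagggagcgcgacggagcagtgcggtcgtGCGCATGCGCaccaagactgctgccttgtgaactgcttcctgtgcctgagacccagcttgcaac
4930517M08Rik upstream, chr17:4626243-4626443: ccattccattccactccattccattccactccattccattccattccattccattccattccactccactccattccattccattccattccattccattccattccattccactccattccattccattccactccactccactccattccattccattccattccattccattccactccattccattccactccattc

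The Morn3 sequence carries 3 copies spread over most of the window, whereas both Ptma copies have the same letters and lie close together. The Srl sequence carries 2 exact palindromes, one on each side of the summit. By contrast, the stretch upstream of 4930517M08Rik has no copy and is a simple repeat of short pyrimidine-rich units.

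Fold enrichment, the ratio of the signal at the summit to the local background of the input as the authors gave it, was lower at distal peaks than at the other peaks pooled, most of which were promoter peaks. Its median was 8.62 at distal peaks, with quartiles of 6.04 and 12.6, against 9.03 at flanking and 11.1 at promoter peaks. Of the distal peaks, 112 of 325, or 34.5%, exceeded the median of all nuclear peaks, 10.7, compared with 1499 of 2898 other peaks, or 51.7%, giving an odds ratio of 0.491 (Fisher's exact test, two-sided, p = 3.83e-09, adjusted p = 1.05e-08 over 11 tests by the Benjamini-Hochberg method). Flanking peaks exceeded that median in 110 of 291 cases, or 37.8%, and a difference between distal and flanking peaks was not detected (odds ratio 0.865, Fisher's exact test, two-sided, p = 0.402, chosen after the values were seen). Distal peaks were also narrower, with a median width of 239 bp against 296 bp at promoter peaks. Nevertheless, their upper range reached 35.1, well inside the range of promoter peaks, which ended at 49.95.

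The strongest distal peak, with a fold enrichment of 35.1, lay 10944 bp upstream of Morn3, which encodes a protein with MORN repeats, at chr5:123057733-123058260. A peak in the coding sequence of Nr3c1, which encodes the glucocorticoid receptor, followed at 32.4. This peak lacks the motif, and whether it marks NRF1 on genomic DNA was not tested. Next were an intronic peak in the imprinted gene Peg10 at chr6:4749208-4749580, with 29.8 and 2071 bp from the start, and a peak at chr15:73067404-73067976 with 29.8, 6322 bp upstream of Trappc9, a gene of an imprinted cluster. The coding exon of Gdf15, which encodes a stress-induced cytokine, held a peak of 27.9 at chr8:70629635-70630098. The other 5 of the strongest 10 lay upstream of Kcnn1 (27.9), a potassium channel gene, of Slx4 (27.0), a scaffold of DNA repair nucleases, and of Ptma (26.6), encoding prothymosin alpha, whose start was 38924 bp away while a GENCODE M21 start of Rpl30-ps6 was 13974 bp away, in the coding exon of Zfp771 (25.8), a zinc finger gene, and upstream of 4930517M08Rik (25.4). Of these 10 peaks, 8 held the NRF1 motif, against 57.5% of all distal and 64.9% of all nuclear peaks, a difference that was not tested. Predicted starts lay 80 bp from the Kcnn1 summit and 3 bp from the Slx4 summit, and GENCODE M21 starts lay 1038 bp from the Nr3c1, 1971 bp from the Peg10 and 55 bp from the Slx4 summit. Thus 4 of these 10 peaks count as distal only by known RefSeq transcripts.

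Fold enrichment was lower in each farther class of distance, and the motif was least frequent beyond 100 kb. Median fold enrichment was 10.6 in the 58 peaks between 2 and 5 kb, 10.4 in 49 between 5 and 10 kb, 8.24 in 151 between 10 and 50 kb, 7.56 in 33 between 50 and 100 kb, and 6.41 in 34 peaks beyond 100 kb. The motif was present in 69.0%, 57.1%, 62.9%, 48.5% and 23.5% of these peaks, respectively. The farthest class contained 12 of the 19 distal peaks with a fold enrichment under 3.3, and without these its median was 8.50 and its motif share 36.4% over 22 peaks, so that the class between 50 and 100 kb was then the lowest in fold enrichment. These values are given as a description and the trend was not tested. Around the limit of 2000 bp, the 3 nearest distal peaks were in 4932441J04Rik (2004 bp, fold enrichment 5.74), in Clec11a (2024 bp, 9.68) and upstream of Tnpo2 (2026 bp, 12.3), while the 3 peaks just excluded were near Mir6376 (1987 bp, 18.6), in Tob2 (1976 bp, 15.1) and near Cpeb3 (1942 bp, 3.92).

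**Figure D1:**
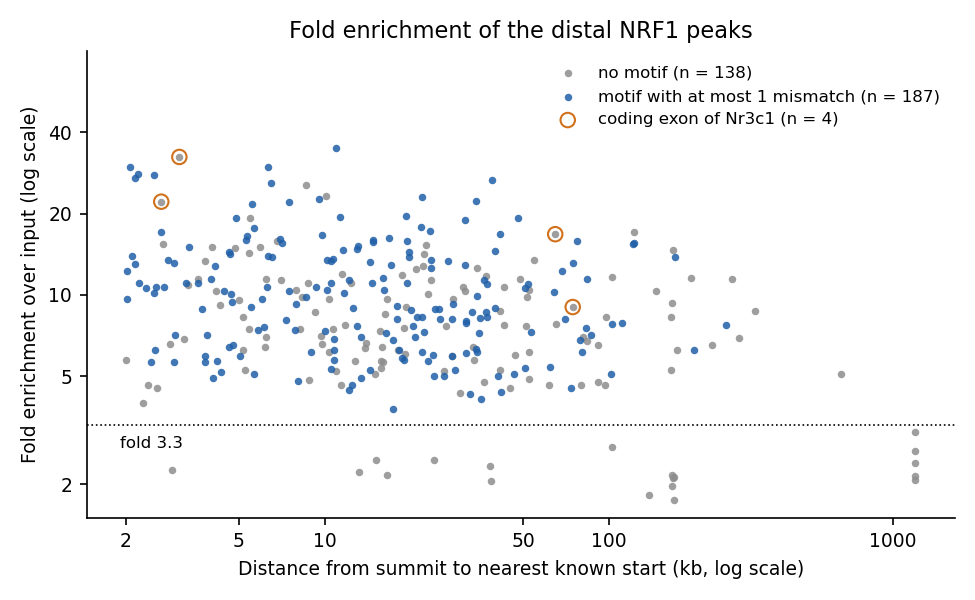
Fold enrichment over input (vertical axis, log scale) against the distance from summit to nearest known start in kb (horizontal axis, log scale) for the 325 distal peaks, 1 point each. Blue points hold the motif and grey points do not, orange rings mark the 4 coding-exon peaks of Nr3c1, and the dotted line marks a fold enrichment of 3.3, below which all 19 peaks lack the motif.

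The NRF1 motif was then searched within 100 bp of each summit. A copy of GCGCATGCGC with at most 1 mismatch, which reads alike on both strands, was present at 64.9% of all nuclear peaks. It was found at 187 of 325 distal peaks, or 57.5% (Wilson 95% interval 52.1 to 62.8%), and at 1905 of 2898 other peaks, or 65.7%, with an odds ratio of 0.706 (Fisher's exact test, two-sided, p = 0.00393, adjusted p = 0.00617). None of the 19 distal peaks with a fold enrichment under 3.3 held a copy, and without peaks under 3.3 the share was 61.1% and the odds ratio 0.817 (exact p = 0.114). The call also varied with the search, since the odds ratio was 0.812 with 50 bp on either side (exact p = 0.0857) and 0.465 with at most 2 mismatches (p = 5.69e-06). The exact palindrome was present at 10.8% of all nuclear peaks, and at 32 distal peaks, or 9.85% (7.06 to 13.6%), compared with 10.9% of other peaks (exact p = 0.638, adjusted p = 0.638).

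The motif was concentrated at the summits. In windows of the same size centred 1000 bp downstream of the summit, 1 of the 325 distal peaks had a copy, or 0.308%, so that 186 peaks had the motif at the summit alone and 0 in the flank alone (exact McNemar test, two-sided, p = 2.04e-56, adjusted p = 1.12e-55). Among the distal peaks with a copy, the median offset of the nearest one was 10.5 bp, and it was within 25 bp in 142 of 187, or 75.9%. The corresponding values in other peaks were 12.5 bp and 74.9%.

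**Figure D2:**
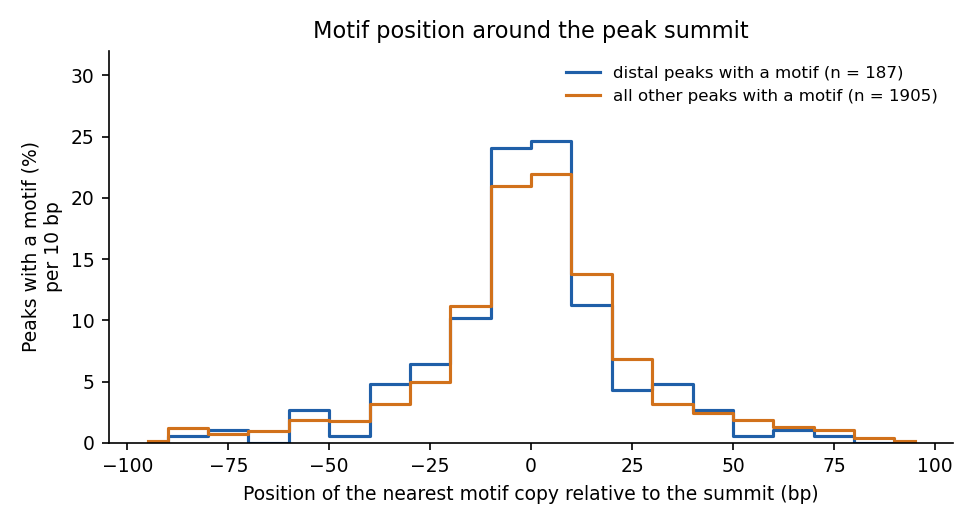
Share of motif-bearing peaks (vertical axis, % per 10 bp) by the position of the nearest copy relative to the summit in bp (horizontal axis), for 187 distal peaks (blue) and 1905 other peaks (orange). Both lines peak at the summit, and the distal line follows that of the other peaks.

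Fold enrichment was higher at distal peaks with the motif. Its median was 9.68 in the 187 peaks with a copy and 7.43 in the 138 without, and 56.7% of the former but 39.9% of the latter exceeded the median of distal peaks (odds ratio 1.98, Fisher's exact test, two-sided, p = 0.00347, adjusted p = 0.00617). Without peaks under a fold enrichment of 3.3, the odds ratio was 1.43 (exact p = 0.159). The call was also lost with GENCODE M21 starts counted too, at an odds ratio of 1.725 (exact p = 0.0598). Among motif-bearing distal peaks, the 32 with an exact palindrome had a median of 14.1 and the 155 with 1 mismatch only had 8.91. Relative to the median of these motif-bearing peaks, 75% of the former and 44.5% of the latter were higher (Fisher's exact test, two-sided, p = 0.00183, adjusted p = 0.00244 over 4 comparisons chosen after the values were seen). In other peaks the medians were 14.3 and 12.2, with 58.7% and 48.2% above their own median (adjusted exact p = 0.00142). Whether the effect of an exact copy differed between distal and other peaks was not tested.

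The strongest distal peaks with an exact palindrome were in the coding exon of Gdf15 (27.9) and upstream of Kcnn1 (27.9). They were followed by a peak 34072 bp upstream of Foxk1 (22.2), a forkhead factor gene, at chr5:142367215-142367919, and 1755 bp from a predicted start. The next was 11354 bp downstream of the start of Rela (19.4), which encodes an NF-kappaB subunit, at chr19:5648704-5649033. The fifth lay 47815 bp downstream of the start of Srl (19.3), encoding the calcium-binding protein sarcalumenin of the sarcoplasmic reticulum, at chr16:4475008-4475514.

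The number of copies per peak was also counted. Of the 325 distal peaks, 161 had 1 copy, 23 had 2, 2 had 3 and 1 had 4. At least 2 copies were thus present in 8% of distal and 12.1% of other peaks (Fisher's exact test, two-sided, p = 0.0287, chosen after the values were seen and not adjusted). Without peaks of fold enrichment under 3.3, the shares were 8.50% and 12.1%, and the difference did not pass the test (odds ratio 0.673, exact p = 0.0623). The 26 distal peaks with at least 2 copies had a median fold enrichment of 14.2 against 8.95 in those with 1 copy (76.9% against 45.3% above the median of motif-bearing distal peaks, exact p = 0.00301, adjusted p = 0.00301). Most copies were found in an intron of Nol4l, with 4 copies and a fold enrichment of 11.01, upstream of Morn3 and upstream of Slx4, with 3 copies each. The Nol4l summit, 37272 bp from a known start, lay 84 bp from a predicted one. Starts of neighbouring copies in one peak were 6 to 168 bp apart, and in 7 of 30 neighbouring pairs the copies overlapped, 5 of them with a spacing of 6 bp.

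The forms of the copies differed between distal and other peaks. For each motif-bearing peak the best copy was read on the strand that sorts first, and positions are counted from 1 at the 5′ end of the palindrome. The form GCGCAGGCGC (T6G) was the best copy at 34 of 187 distal peaks, or 18.2%, against 32.1% of other peaks (odds ratio 0.469, Fisher's exact test, two-sided, adjusted p = 0.000428 over 7 forms found at 10 or more distal peaks). The form GCGCACGCGC (T6C) was also less frequent, at 13.9% against 20.9% (adjusted exact p = 0.0387). In contrast, ACGCATGCGC (G1A) was more frequent, at 16.6% against 8.66% (adjusted exact p = 0.00322), as were GAGCATGCGC (C2A), at 12.3% against 5.93% (adjusted p = 0.00615), and GCACATGCGC (G3A), at 6.42% against 3.15% (adjusted p = 0.0447). The exact palindrome had similar shares of 17.1% and 16.6% (adjusted exact p = 0.838). Within CpG-poor sequence alone, with 120 distal and 310 other motif-bearing peaks, the forms named as differing kept these directions, but no form passed after adjustment. T6G was at 15.8% and 27.4% there (odds ratio 0.498, adjusted exact p = 0.0842), T6C at 10.8% and 13.9% (0.754, adjusted p = 0.523), G1A at 19.2% and 11.9% (1.75, adjusted p = 0.218), C2A at 12.5% and 7.42% (1.78, adjusted p = 0.299) and G3A at 8.33% and 6.13% (1.39, adjusted p = 0.523). This comparison of forms was chosen after the values were seen.

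Distal peaks lay less often in CpG-rich DNA, which was defined as sequence within 250 bp of the summit with a GC content of at least 55% and a ratio of observed to expected CpG of at least 0.65. Among all nuclear peaks 78.3% were in such sequence. The share was 106 of 325 distal peaks, or 32.6% (27.8 to 37.9%), and 2419 of 2898 other peaks, or 83.5%, giving an odds ratio of 0.0958 (Fisher's exact test, two-sided, p = 5.9e-80, adjusted p = 6.49e-79). Flanking peaks, at 73.9%, were closer to promoter peaks, at 84.5%. With limits of at least 50% GC and a CpG ratio of at least 0.6, the odds ratio of distal against other peaks was 0.0563 (exact p = 1.02e-101). The median GC content of distal peaks was 54.9% and their median CpG ratio 0.603, compared with 63.3% and 0.864 at promoter peaks.

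**Figure D3:**
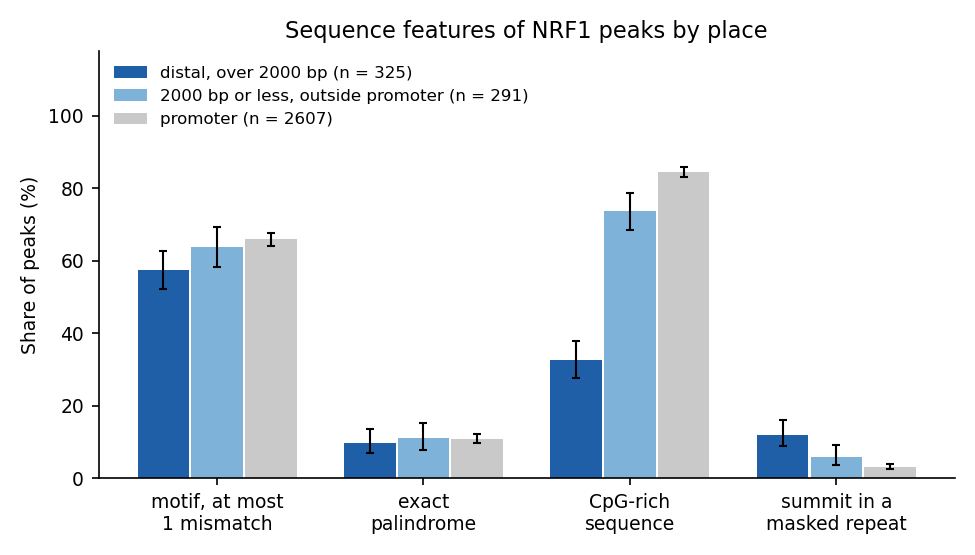
Share of peaks in % (vertical axis) with the motif, with an exact palindrome, in CpG-rich sequence and with the summit in a masked repeat, for 325 distal, 291 flanking and 2607 promoter peaks. Bars are shares and error bars are Wilson 95% intervals. The classes are furthest apart in CpG-rich sequence, with 32.6%, 73.9% and 84.5%.

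To compare peaks in like sequence, distal and other peaks were set side by side within each class of CpG content, a comparison chosen after the values were seen. In CpG-rich sequence, 63.2% of 106 distal and 65.9% of 2419 other peaks held the motif (Fisher's exact test, two-sided, p = 0.601), and 47.2% and 53.6% exceeded the median fold enrichment of all nuclear peaks (p = 0.198), with medians of 10.6 and 11.1. In all other sequence, called CpG-poor here, 54.8% of 219 distal and 64.7% of 479 other peaks held the motif (exact p = 0.0149), a difference that was not detected without peaks of fold enrichment under 3.3 (59.7%, p = 0.223). Fold enrichment was lower at distal peaks there, with medians of 7.86 and 9.67 and with 28.3% against 42.2% above the overall median (exact p = 0.000546), also without those peaks (30.8%, p = 0.00583). Within distal peaks, the motif shares of 63.2% in CpG-rich and 54.8% in CpG-poor sequence gave an odds ratio of 1.42 (exact p = 0.154, adjusted p = 0.169). That difference passed, without adjustment, with at most 2 mismatches (odds ratio 2.695, exact p = 0.00537). It also passed with a GC content of at least 50% and a CpG ratio of at least 0.6 (1.875, exact p = 0.00668). The motif was present in 120 CpG-poor distal peaks, where the median fold enrichment was 8.44, against 11.1 at the 67 CpG-rich peaks with the motif. The CpG-poor class includes peaks with a high CpG ratio but a GC content under 55%, such as that upstream of Morn3 (54.3% and 1.095).

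**Figure D4:**
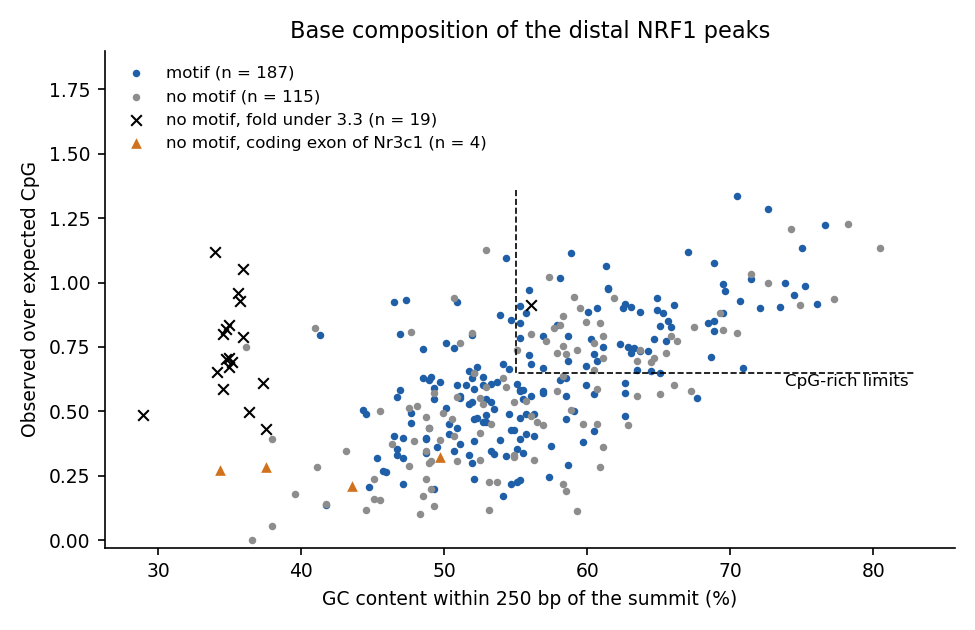
Observed over expected CpG (vertical axis) against GC content in % (horizontal axis) within 250 bp of the summit, 1 point per distal peak, with dashed lines at the limits of CpG-rich sequence. Blue points hold the motif and grey points do not. The 19 peaks with a fold enrichment under 3.3 (crosses) mostly lie at a GC content near 35%, and the 4 coding-exon peaks of Nr3c1 (triangles) lie at CpG ratios of at most 0.323.

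Exact palindromes of the genome were then counted to see how many distal ones were occupied. More than 2000 bp from any known start, 1204 exact copies were found, and 38 of them, or 3.16% (2.31 to 4.30%), lay in a peak. In CpG-rich sequence 17 of 22 copies were in a peak, or 77.3% (56.6 to 89.9%), whereas in all other sequence 21 of 1182 were, or 1.78% (1.17 to 2.70%). The share was 0 of 60 at a CpG ratio up to 0.2, which allows a share of up to 5% (3 counts of the total; Wilson upper limit 6.02%), then 6 of 569 up to 0.4, 11 of 455 up to 0.6, 13 of 99 up to 0.8, and 8 of 21 above it. Median GC content was 55.8% around copies in a peak and 47.7% around the others. Among 395 copies in masked repeats, 2 were in a peak, against 36 of 809 elsewhere. These counts describe 1 list, methylation was not measured here, and the part of unique mapping in the low share of masked copies was not tested.

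**Figure D5:**
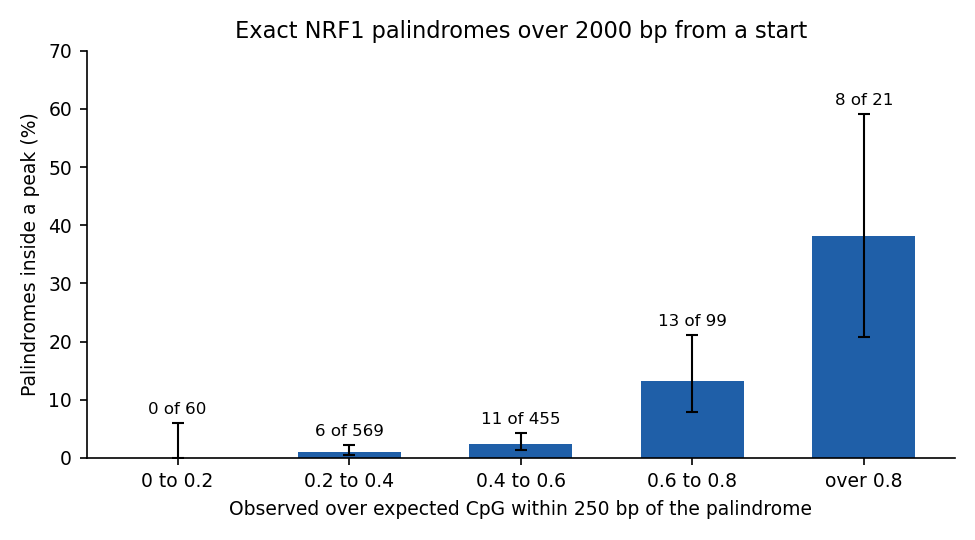
Share of exact palindromes more than 2000 bp from a known start that lay inside a peak (vertical axis, %) by observed over expected CpG within 250 bp of it (horizontal axis). Bars are shares with Wilson 95% intervals and the counts are printed above. The share is 0 of 60 in the lowest class and 8 of 21 in the highest.

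By place in known transcripts, 188 distal summits, or 57.8%, were intergenic, 89 were in introns, 36 in coding exons and 12 in untranslated or non-coding exons. Median fold enrichments were 8.44, 7.70, 11.1 and 9.60, and motif shares were 56.4%, 59.6%, 55.6% and 66.7%, respectively. Intronic peaks were in CpG-rich sequence in 15.7% of cases and coding-exon peaks in 61.1%. Summits were downstream of the nearest start in 191 cases and upstream in 134. The 5 motif-bearing peaks farthest from a known start were a choice made after values were seen. The farthest was intergenic and nearest to Atp10a (258989 bp, fold enrichment 7.74). The others were in introns of Disc1 (200061 bp, 6.26), Bcas3 (171178 bp, 13.8), Arid1b (122887 bp, 15.6) and Tgfbr3 (121659 bp, 15.4). The last 3 held an exact palindrome, at CpG ratios of 0.504, 0.335 and 0.268. From the nearest GENCODE M21 start, the distances of these 5 peaks were 118949, 26933, 14704, 92883 and 7399 bp, so the distance of most of them rests on the annotation chosen.

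Because the distance rests on known transcripts, starts of predicted and GENCODE transcripts were also used. A predicted RefSeq start was within 2000 bp of 63 distal summits, and within 100 bp of 18. Of these 63 peaks, 69.8% held the motif, compared with 54.6% of the 262 other distal peaks (odds ratio 1.93, Fisher's exact test, two-sided, p = 0.033, adjusted p = 0.0454). Without peaks of fold enrichment under 3.3, all 19 of which were among the 262, 58.8% of 243 peaks held it and the difference did not pass the test (odds ratio 1.62, exact p = 0.147). The 63 peaks were also more often in CpG-rich sequence, at 52.4% against 27.9% (odds ratio 2.85, exact p = 0.000303, adjusted p = 0.000667). Fold enrichment exceeded the distal median in 58.7% and 47.3%, a difference that did not pass the test (exact p = 0.123, adjusted p = 0.15), with medians of 10.6 and 8.27. A GENCODE M21 start was within 2000 bp of 97 distal summits. In all, 125 distal peaks were near a start of either kind and 200 were near none. Of the latter, 111 held the motif, 51 were CpG-rich and 30 were both, against 187, 106 and 67 of all 325 distal peaks.

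Coding exons of Nr3c1, on chromosome 18, contained 4 distal peaks. They had fold enrichments of 32.4, 22.1, 16.8 and 9.03, and these were all the peaks within the gene. The first and the second lay 1038 and 617 bp from a GENCODE M21 start. None of the 4 held the motif, GC content was between 34.3% and 49.7%, and the CpG ratio was at most 0.323. One of them contained a whole exon of 117 bp. In the 32 other coding-exon peaks, 20, or 62.5%, held the motif, 22, or 68.8%, were CpG-rich, and the median fold enrichment was 10.7. Whether these 4 peaks mark NRF1 on genomic DNA was not tested, and why peaks lay in coding exons of this receptor gene was not tested either.

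Among the other coding-exon peaks, 2 in genes with known roles in muscle may serve as examples, chosen after their values were seen. Mamstr, encoding a coactivator of MEF2, had a peak at chr7:45643478-45643673 with a fold enrichment of 11.1 and 1 copy of the motif, which is distal only by known RefSeq transcripts since a GENCODE M21 start of Mamstr was within 2000 bp. Fbxl22, encoding an F-box protein of the sarcomere, had one at chr9:66511548-66512055 with 15.4 and no copy.

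Masked repeats were more frequent at distal than at other summits, although both shares were below that of masked bases in the genome, a comparison without a test. Soft-masked sequence, in which the reference marks repeats, made up 36.4% of the bases of the nuclear chromosomes and contained 4.22% of all nuclear summits. It contained 39 of 325 distal summits, or 12% (8.90 to 16.0%), and 97 of 2898 others, or 3.35%, giving an odds ratio of 3.94 (Fisher's exact test, two-sided, p = 3.74e-10, adjusted p = 1.37e-09). Without peaks of fold enrichment under 3.3, 24 of 306 remained, or 7.84% (5.33 to 11.4%), with an odds ratio of 2.46 (exact p = 0.000395), which is over 1.5 times lower. Among flanking peaks 17 of 291 summits were masked, or 5.84% (3.7 to 9.2%), against 3.07% of promoter summits. The intervals of these distal and the flanking peaks overlapped, and the 2 classes were not compared by a test. The strongest masked distal peaks were upstream of Morn3 (35.1) and Kcnn1 (27.9), where 11.9% and 10.9% of the bases within 100 bp were masked. They were followed by 4930517M08Rik (25.4), 2010308F09Rik (19.2) and D130079A08Rik (17.2), with 90.0%, 35.3% and 91.0% masked and no copy of the motif.

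The 19 distal peaks with a fold enrichment under 3.3 stood apart from the rest. Their median fold enrichment was 2.17, whereas no other distal peak was under 3.802, and 15 of them were in masked sequence. On chromosome 2, 5 peaks between 98662250 and 98667352 had values of 2.08 to 3.11, and these were the 5 peaks farthest from a known start, at 1195041 to 1199422 bp from Lrrc4c. GENCODE M21 starts of Gm10800 and Gm10801 were much closer, however, at 222 to 2155 bp, so that 4 of these 5 would not be distal by that annotation. Another 5 lay on chromosome 14 between 19415780 and 19419476, and 6 on chromosome 9 between 2999998 and 3035979. GENCODE M21 starts were 111 to 3096 bp from the former and 24 to 1349 bp from the latter. By that annotation, only part of the former and none of the latter would be distal. The median GC content of the 19 was 34.9%. The study's methods name a blacklist of a human genome build, and its part in these peaks was not tested.

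Other factor motifs were searched within 100 bp of the summits on both strands, with tests adjusted over 8 motifs. The GC box GGGCGG, bound by SP1 and its relatives, was present at 116 distal peaks, or 35.7%, and at 63.9% of other peaks (odds ratio 0.314, Fisher's exact test, two-sided, adjusted p = 1.81e-21). The MEF2 site, bound by a family of muscle regulators, was rare but more frequent at distal peaks, at 10 or 3.08% against 0.621% (odds ratio 5.08, adjusted exact p = 0.000946). So were the core of the CTCF site, at 6 or 1.85% against 0.552% (odds ratio 3.39, adjusted exact p = 0.0406), and the AP-1 site TGAGTCA, at 8 or 2.46% against 0.932% (odds ratio 2.68, adjusted p = 0.0406). Among these peaks, 4 of 10 with a MEF2 site, 4 of 6 with a CTCF core and 4 of 8 with an AP-1 site also held the NRF1 motif. The motif was at 57.5% of all distal and 64.9% of all nuclear peaks, and these small counts were not tested against those shares.

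These 4 motifs were also compared within each class of CpG content. In CpG-rich sequence none of them passed, and the GC box was at 60.4% of distal and 68.9% of other peaks (odds ratio 0.689, adjusted exact p = 0.139), with adjusted p of 0.253 to 0.428 for the other motifs. In CpG-poor sequence the GC box was at 23.7% of distal and 38.6% of other peaks (odds ratio 0.495, adjusted exact p = 0.000832 over 8 comparisons chosen after the values were seen). The MEF2 site was at 9 of 219 distal and 6 of 479 other peaks (odds ratio 3.38, adjusted exact p = 0.0912), the CTCF core at 4 and 1 (odds ratio 8.89, adjusted p = 0.0954) and the AP-1 site at 6 and 7 (odds ratio 1.9, adjusted p = 0.278). In both classes all 4 odds ratios had the direction found in all peaks, although in CpG-poor sequence the last 3 did not pass after adjustment. In CpG-rich sequence the AP-1 site, the CTCF core and the MEF2 site were at only 2, 2 and 1 of 106 distal peaks. Their direction there therefore carries little weight. Of the motifs searched in all peaks, 4 did not pass. The E-box CACGTG (8.62% and 8.42%, adjusted exact p = 1), the CRE TGACGTCA (1.54% and 2.79%, adjusted p = 0.363) and the CCAAT box CCAAT (19.4% and 22.4%, adjusted p = 0.363) were among them. The glucocorticoid response element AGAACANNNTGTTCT with at most 1 mismatch was at 0 of 325 distal peaks, which allows a share of up to 0.923%. It was also at 0 of 2898 others, so that these letters were in none of the windows and a test could show no difference.

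Gene lists were examined for distal peaks in the gene or within 50000 bp of its starts. Of all 26182 genes with a known transcript, 745, or 2.85%, had such a peak. One list held genes linked to the breakdown of muscle protein and its control. Of its 23 genes, 2 had a distal peak nearby. Fbxo31, encoding an F-box subunit of a ubiquitin ligase, had a peak of 14.9 at 6785 bp from its start without the motif, although the start of Map1lc3b was closer, at 4847 bp. Trim55, encoding a ubiquitin ligase of the sarcomere, had peaks of 10.4 and 5.36 at 16180 and 15833 bp, the first with an exact palindrome among 2 copies, and these lay 397 and 50 bp from a GENCODE M21 start of 1700064H15Rik. Of 24 sarcomere genes, 2 had one. These were Tpm2 and Mylpf, a myosin light chain gene whose peak was that in the coding exon of Zfp771. That peak was 42576 bp from the start of Mylpf and 6483 bp from that of Dctpp1. Tpm2 had a peak of 14.3 at 45248 bp, which was 5403 bp from Sit1, and another of 14.0 at 23840 bp in an exon of Arhgef39. The latter lay 19 bp from a GENCODE M21 start of Arhgef39. Of 36 imprinted genes, 3 had one, and Peg10 and Sgce shared the same peak while Trappc9 had the other.

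In the respiratory chain, the classical target group of NRF1, 4 of 103 genes, or 3.88%, had a distal peak nearby. These were Atp5d (15.1, at 17749 bp), Ndufa7 (15.9, at 6837 bp), Ndufa11 (10.7, at 44440 bp) and Ndufs3 (5.72, at 14742 bp). Each of these peaks was closer to the start of another gene. That of Atp5d was 5926 bp from Cirbp and that of Ndufa11 2549 bp from Dus3l, while that of Ndufa7 was in a coding exon of Kank3, 172 bp from a GENCODE M21 start, and that of Ndufs3 in a coding exon of C1qtnf4. The peaks nearest Ndufa11 and Ndufs3 each held 1 copy of the motif, and those nearest Atp5d and Ndufa7 held none. All counts are small and were not tested, and a peak near a gene does not show that it acts on that gene.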

How the data were processed

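Libraries were prepared by the authors from wild-type mouse skeletal muscle. As the study describes, single-end reads were mapped to mm10 (also given in the submitters' processing notes) with Bowtie, uniquely mapped reads were kept, blacklisted regions were removed, and peaks were called with MACS2 against input. The broad option is named in the methods, although the deposited list has the narrow layout with a summit each. For each peak the deposited values are the authors' fold enrichment, a ratio of signal to input background, and p-values and q-values on the −log10 scale. Unique mapping lowers signal in repeats, and depth is unknown.

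Summits, sequence and soft-masking were placed on the RefSeq sequence of GRCm38, with 31601 start positions of 45756 known transcripts. Members and gene lists were chosen with earlier results of these data known. Named peaks were the 10 strongest, the 5 strongest with an exact palindrome, the 3 with most copies, the 5 farthest, the 3 on each side of the limit, those in coding exons of listed genes, and the 5 strongest masked ones. Some results under this rule are not reported here. Each was named by the gene holding it or that of the nearest start. Shares were compared across peaks by Fisher's exact test or the exact McNemar test, both two-sided (scipy 1.17.1, numpy 2.4.6, pandas 2.3.3, Python 3.11.15), with Benjamini-Hochberg adjustment. Intervals are Wilson 95% intervals and cover counting error only. The motif search and tests were tested on simulated data. Alternatives covered q and fold limits, distance, start annotation, and motif, CpG and repeat definitions.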

Additional observations from a re-analysis of the deposited data

How the results depend on the processing

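Of 108 alternative tests, 94 stayed on the same side of 0.05, without adjustment, and in the same direction. The 11 alternative counts of distal peaks lay between 218 and 389, each within 1.5 times of the count reported. The odds ratio of above-median fold enrichment lay between 0.392 and 0.546, that of CpG-rich sequence between 0.0563 and 0.106, and that of masked summits between 2.44 and 29.9, the last with at least 50% of the window masked. The lower motif share of distal peaks was no longer called with peaks of fold enrichment 5 or more (odds ratio 0.7995), without peaks under 3.3 (0.8166), without these and the Nr3c1 coding-exon peaks (0.8451) and with 50 bp either side (0.8124), and p over its 14 alternatives ranged from 5.69e-06 to 0.182. The higher fold enrichment with the motif was no longer called with peaks of fold enrichment 5 or more (1.422), without peaks under 3.3 (1.431), without these and the Nr3c1 peaks (1.616) and with GENCODE M21 starts counted too (1.725). The motif share of CpG-rich against CpG-poor distal peaks passed the threshold with at most 2 mismatches (2.695) and with a GC content of at least 50% and a CpG ratio of at least 0.6 (1.875). The odds ratio of exact palindromes, not called in any setting, turned above 1 beyond 10000 bp (1.02) and with GENCODE starts (1.065). Without peaks under 3.3, a setting chosen after seeing the data for these results, the higher motif share at predicted starts (1.619) and the lower share with at least 2 copies (0.673) were no longer called. The cause of these changes was not tested. The alternatives with GENCODE starts and without the Nr3c1 peaks were chosen after seeing the data, as was the repeat of the 8 other motifs without peaks under 3.3, in which 4 motifs passed, as in the full list. No paired analysis was possible because the data analysed here are 1 peak list without separate values for each library, and for the same reason no replicate could be left out. Depth limits every count, since weak distal sites may have been missed.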

Other observations

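Enhancer records of RefSeq overlapped 5 of the 325 distal peaks, or 1.54%, and 8 of all 3223 nuclear peaks, or 0.248%. The 3 others were among the 2898 other peaks (odds ratio 15.1, Fisher's exact test, two-sided, p = 0.000438, chosen after the values were seen and not adjusted). This odds ratio rests on 5 and 3 peaks, and most of the other peaks were promoter peaks. Distance from starts defines the distal peaks, and how far the records themselves lie from starts was not tested. Of the 5 distal peaks 3 held the motif, against 57.5% of all distal peaks. The strongest was a peak with a fold enrichment of 22.6 at chr6:145855708-145855952, nearest to Bhlhe41, a circadian repressor gene, 9596 bp from its start. The others were nearest to Wee1 (7.74), Btg2 (6.65), 2010308F09Rik (6.53) and 1700110C19Rik (5.33). Another NRF1 peak was within 5000 bp of 39 distal summits and within 1000 bp of 19. The shares of all nuclear peaks within these limits were not counted, so these counts do not show whether distal peaks cluster. The median distance to the nearest other summit was 94770 bp at distal and 94140 bp at all nuclear peaks. It was 1150 bp at the 19 distal peaks with a fold enrichment under 3.3, and the 2 strongest Nr3c1 peaks lay 421 bp apart. By chromosome, the share of distal peaks was highest on chromosome 14, with 28 of 133 nuclear peaks or 21.1%, followed by chromosome X, with 15 of 91 or 16.5%, and it was lowest on chromosome 19, with 5 of 102 or 4.90%, leaving out chromosome Y with its single peak. Of the peaks on chromosome 14, 5 had a fold enrichment under 3.3. Shares by chromosome were not compared by a test.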
